A study of Arabidopsis thaliana with 36 samples.

Results

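SPX1 (AT5G20150), SPX2 (AT2G26660), SPX3 (AT2G45130) and SPX4 (AT5G15330) encode small proteins that consist largely of an SPX domain. They were chosen by locus, 4 of the 27444 genes in the deposited expression table of an Arabidopsis thaliana RNA-seq study. The study compared Col-0 wild-type plants (WT), the ppsr1 T-DNA knockout (KO) and 1 overexpression line of AtPPSR1 (OE). Plants of all 3 genotypes grew in hydroponic culture at 200 µM phosphate (Pi) for 4 weeks and then spent 24 h at either 200 µM or 0 µM Pi. Roots and mature rosette leaves were collected apart, giving 12 groups of 3 libraries. The sources used here do not give the promoter of the overexpression construct, the T-DNA position or the number of plants per library. The PPSR1 locus was not analysed here, so no value checks the genotype labels.

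SPX proteins tie transcription to the Pi status of the cell. At high Pi, inositol pyrophosphates bind the SPX domain, and the loaded protein holds the MYB-type transcription factor PHR1 and its relatives away from their target promoters. At low Pi the complex falls apart and PHR1 binds a short element named P1BS. SPX1, SPX2 and SPX3 are themselves known as genes induced by Pi starvation, which closes a negative feedback loop, whereas SPX4 is known as the member that Pi starvation does not induce at the transcript level.

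The stretches upstream of the genes are shown because they hold the P1BS letters through which PHR1 is known to act. In TAIR10.1 all 4 genes lie on the + strand: SPX1 at chr5:6802282-6803655, SPX2 at chr2:11338752-11340950, SPX3 at chr2:18606410-18607853 and SPX4 at chr5:4980374-4982231, each with 3 exons. The motif searched was GNATATNC, which is its own reverse complement, so a match counts on both strands. Each line gives the + strand 5′ to 3′ from RefSeq's TAIR10.1 genome, 60 bases without any annotated gene, with the match in capitals.
SPX1, chr5:6801521-6801580: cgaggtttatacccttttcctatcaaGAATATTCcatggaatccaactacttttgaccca
SPX3 distal, chr2:18606171-18606230: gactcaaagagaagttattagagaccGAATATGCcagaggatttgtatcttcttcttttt
SPX3 proximal, chr2:18606294-18606353: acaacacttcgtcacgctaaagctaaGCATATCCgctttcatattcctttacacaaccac
SPX4, chr5:4980010-4980069: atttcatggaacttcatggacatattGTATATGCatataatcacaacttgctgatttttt
The SPX3 matches begin at -213 and -90 from the annotated gene start, and SPX3 was the only member with a match within 300 bases. Of 27443 promoters, 6.50% held at least 1 match in that window and 0.313% held 2 or more. The SPX1 match lies at -735 and the SPX4 match at -338, within the 1000-base window in which 20.3% of promoters held a match. The 1000 bases upstream of SPX2 held none, which says only that these letters are not in that window. A match is a description and not evidence of binding.

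Levels are FPKM, reads scaled to coding length and library size, so the 4 genes can be compared with each other. The values resolved into whole reads and gave 6670000 to 13180000 reads per leaf library and 2070000 to 11780000 per root library, the lowest in OE root replicate 3 at 0 µM. One leaf library lay apart from its group: KO replicate 1 at 200 µM listed 9488 genes at 0, against 7353 to 8551 elsewhere in leaf. Long genes, with over 4000 coding bases, ran low in several libraries and high in others. Their median lay 1.13 below the middle of the organ (log2) in WT root replicate 2 at 200 µM and 0.99 below it in WT leaf replicate 2 at 200 µM. In WT leaf at 0 µM it lay 0.76 below the middle in replicate 1 and 0.89 above it in replicate 3. In OE leaf at 0 µM it lay 0.86 below in replicate 1 and 0.60 above in replicate 2. All 5 leaf markers stood far higher in leaf than in root libraries, and the 5 root markers, among them the Casparian strip gene CASP1, were at a median of 0 to 0.21 FPKM in leaf. In whole organs, fewer cells of a type and less RNA per cell cannot be told apart. Each p measures the spread between libraries that the labels call biological replicates.

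At 200 µM Pi SPX2 and SPX1 were the most abundant members and SPX3 was barely present. The summed level of the 4 genes was 22.6 to 32.4 FPKM in the leaf groups and 32.1 to 40.6 FPKM in the root groups. SPX1 held 33.4 ± 8.75% to 36.1 ± 10.8% of that sum in leaf and 30.9 ± 3.21% to 43.4 ± 14.5% in root (mean ± SD, n = 3 per group). After 24 h at 0 µM the sum stood at 57.8 to 120 FPKM in leaf and at 137 to 173 FPKM in root, and the make-up had shifted towards SPX1. SPX1 then held 56.4 ± 3.44% to 70.4 ± 4.80% of the sum in leaf and 69.1 ± 2.64% to 72.9 ± 2.96% in root. The lowest SPX1 share of any library at 0 µM, 53.8% in leaf and 63.4% in root, exceeded the highest share at 200 µM, 47.6% and 52.8%. The shares of SPX2 and SPX4 were smaller at 0 µM. In the 9 root libraries per Pi level the median share of SPX2 was 42.3% at 200 µM and 21.5% at 0 µM, and that of SPX4 25.6% and 5.74%, while the median SPX4 level was 8.05 and 8.30 FPKM.

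**Figure D1:**
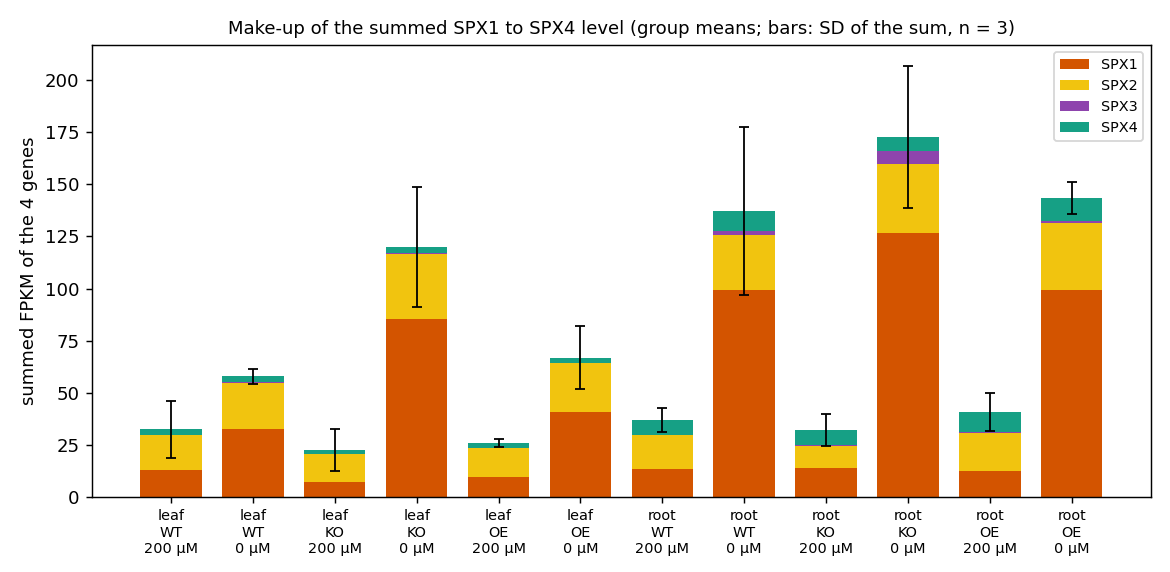
Group means of FPKM for SPX1 to SPX4, stacked, for the 12 groups of organ, genotype and Pi level, with error bars for the SD of the sum over 3 libraries. The 0 µM groups are taller than the 200 µM group of the same organ and genotype, mostly through the SPX1 segment, and the KO leaf bar at 0 µM (120 FPKM) is the tallest in leaf.

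SPX1, a nuclear repressor of PHR1, had the largest change on the log2(FPKM + 1) scale among the 3 members fitted in leaf and the 4 in root. In root that order depends on the amount added: with 0.1 in place of 1, SPX3 changed by 3.42 in WT and 3.58 in KO, and SPX1 by 2.83 and 3.24. In WT leaf replicates 1 to 3 stood at 22.8, 9.31 and 5.83 FPKM at 200 µM and at 32.2, 36.1 and 29.6 FPKM at 0 µM. In KO leaf the values were 5.25, 9.34 and 6.47 FPKM at 200 µM and 90.5, 108 and 57.8 FPKM at 0 µM. In OE leaf they were 7.68, 12.4 and 8.19 FPKM at 200 µM and 53.5, 32.8 and 35.4 FPKM at 0 µM. The 2 Pi levels did not overlap in any genotype, and all KO leaf libraries at 0 µM lay above all those of WT and OE. WT replicate 1 was the highest of the 9 leaf libraries at 200 µM. The ratio of group means was 2.58 in WT, 12.1 in KO and 4.31 in OE.

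On the log2(FPKM + 1) scale SPX1 rose in KO leaf by 3.41 (SE 0.37, limma with Benjamini-Hochberg adjustment, adjusted p = 0.000376) and in OE leaf by 1.99 (adjusted p = 0.0147). In WT leaf the change was 1.498 (SE 0.37) with an adjusted p of 0.402, in a comparison where only 1 of 16489 genes passed. Over the mean of the genotypes SPX1 rose by 2.30 (SE 0.21, adjusted p = 4.26e-05), ranking first of all genes by p. The shares of all genes that passed were 0.00606% in WT leaf, 1.1% in KO leaf, 0.801% in OE leaf and 2.04% over the mean, and those that rose were 0.00606%, 0.964%, 0.685% and 1.5%. Without the outlying KO library the KO leaf response was 3.25 (adjusted p = 0.0021). The OE leaf call was lost (adjusted p 0.0584 to 0.0995) without replicate 1 or 3 of either OE group. The authors' deposited table gives an adjusted p of 4.57e-24 for SPX1 in KO leaf, 2.38e-07 in OE leaf and 0.448 in WT leaf.

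In root SPX1 rose in all 3 genotypes. WT root replicates 1 to 3 held 15.3, 13.6 and 11.1 FPKM at 200 µM and 63.6, 137 and 97.0 FPKM at 0 µM. KO root held 20.8, 8.78 and 12.1 FPKM at 200 µM and 122, 159 and 98.9 FPKM at 0 µM. OE root held 14.1, 10.6 and 12.4 FPKM at 200 µM and 95.6, 92.7 and 109 FPKM at 0 µM. No library at 0 µM came near any at 200 µM, and within each Pi level the ranges of the genotypes overlapped. SPX1 rose by 2.75 in WT, 3.15 in KO and 2.91 in OE (each SE 0.28, limma adjusted p = 0.00011, 1.24e-05 and 4.54e-05), with ratios of group means of 7.45, 9.10 and 8.03. The shares of all genes that passed were 1.96%, 3.53% and 0.235%, with 1.11%, 1.27% and 0.11% rising. The balance of all genes depends on the scaling: in WT root 213 rose and 163 fell, against 77 and 265 under median-of-ratios scaling, and in KO root 243 rose and 433 fell, against 186 and 574. Over the mean of genotypes 8.67% passed and 4.85% rose, that is 930 up and 732 down, against 440 and 1055 under that scaling. In that comparison SPX1 rose by 2.94 (SE 0.16, adjusted p = 4.96e-09). Without the shallowest library, OE replicate 3 at 0 µM, the OE root response was 2.84 (adjusted p = 0.00081).

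**Figure D2:**
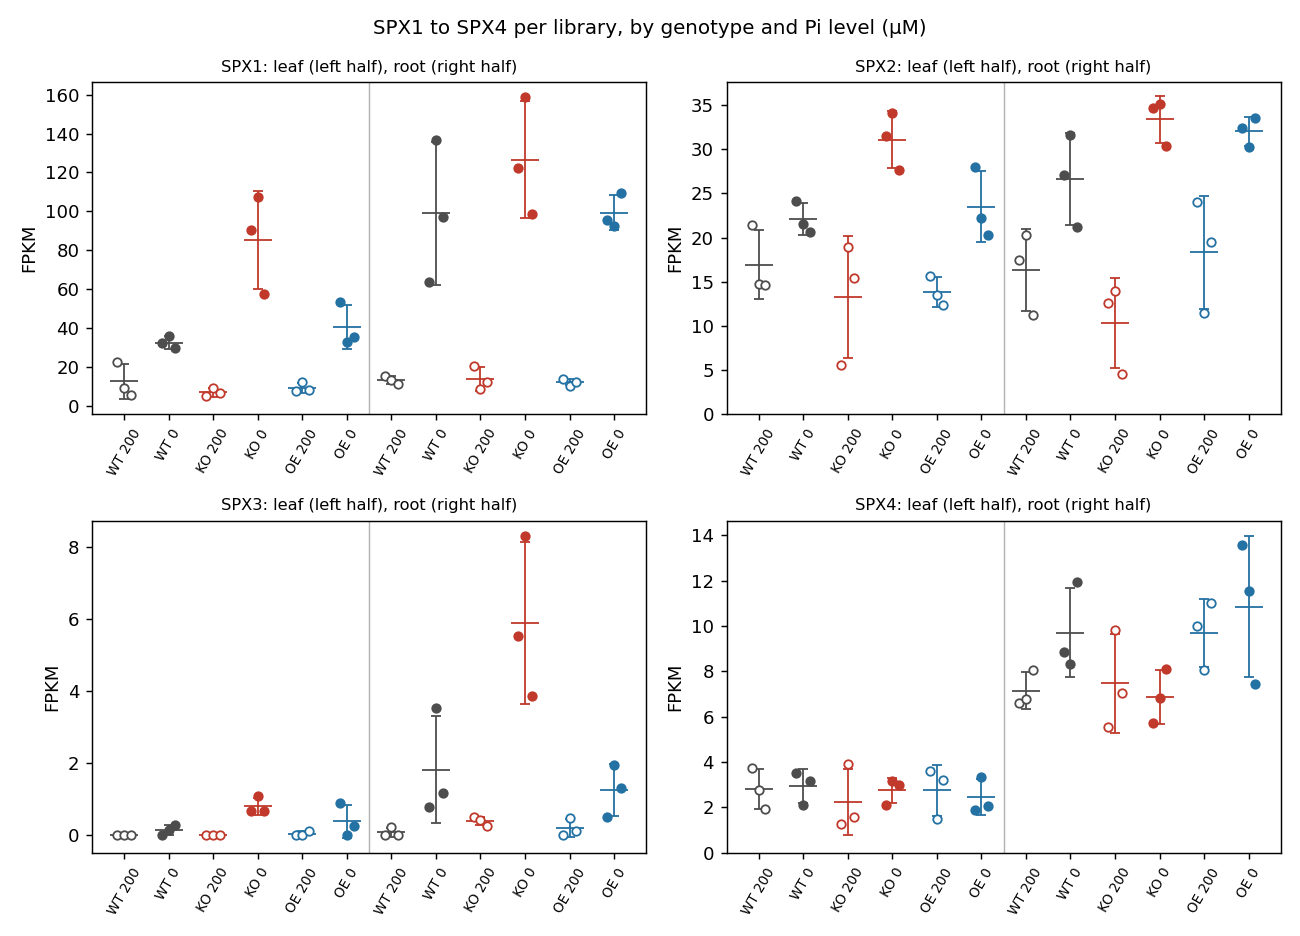
FPKM of SPX1 to SPX4 in each of 36 libraries, with leaf groups left and root groups right in each panel; open points are 200 µM Pi, filled points 0 µM, and bars give mean and SD (n = 3). SPX1 reaches 159 FPKM in root at 0 µM against at most 20.8 at 200 µM, SPX2 at most 35.1, SPX3 at most 8.30 and SPX4 at most 13.6.

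SPX2, which acts redundantly with SPX1, was the steadier gene of that pair. Its leaf values in WT were 21.4, 14.8 and 14.6 FPKM at 200 µM and 24.1, 21.5 and 20.6 FPKM at 0 µM. In KO leaf they were 5.59, 18.9 and 15.4 FPKM at 200 µM and 31.5, 34.1 and 27.6 FPKM at 0 µM. In OE leaf they were 15.6, 13.5 and 12.3 FPKM at 200 µM and 28.0, 22.2 and 20.3 FPKM at 0 µM. The 2 Pi levels overlapped in WT leaf and were apart in KO and OE leaf. The value of 5.59 FPKM belongs to the outlying KO replicate 1. SPX2 rose by 0.80 over the mean of the genotypes (SE 0.18, limma adjusted p = 0.0224), and by 0.64 (adjusted p = 0.00429) without that library. The call over the mean was lost without KO replicate 1 or 2 at 0 µM or OE replicate 3 at 200 µM (adjusted p 0.0578 to 0.0608).

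In KO leaf alone the SPX2 change was 1.31 (SE 0.31, adjusted p = 0.0492), at the edge of the threshold, and it passed under none of the 5 other ways of processing (adjusted p 0.053 to 0.0812). Without KO leaf replicate 1 at 200 µM it was 0.82 (adjusted p = 0.0804). The changes of 0.38 in WT leaf and 0.72 in OE leaf had adjusted p values of 0.806 and 0.502 (limma). The authors' deposited table lists 0.0593 for SPX2 in KO leaf.

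SPX2 root values were 17.5, 20.3 and 11.2 FPKM at 200 µM and 27.0, 31.6 and 21.3 FPKM at 0 µM in WT. They were 12.6, 13.9 and 4.51 FPKM at 200 µM and 34.7, 35.1 and 30.4 FPKM at 0 µM in KO. They were 24.1, 11.4 and 19.5 FPKM at 200 µM and 32.4, 30.2 and 33.5 FPKM at 0 µM in OE. The 2 Pi levels did not overlap in any of the 3 genotypes, although the gap in WT was narrow. SPX2 rose by 1.73 in KO root (SE 0.32, limma adjusted p = 0.00526) and by 1.08 over the mean of the genotypes (SE 0.19, adjusted p = 0.00119). In WT root the change was 0.70 (adjusted p = 0.235) and in OE root 0.83 (adjusted p = 0.642).

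SPX3 was the least abundant member in every group. In leaf it was listed at 0 in all WT and KO libraries at 200 µM, and 1 OE library there held 0.12 FPKM, a single read. At 0 µM the leaf values were 0, 0.13 and 0.28 FPKM in WT, 0.67, 1.08 and 0.66 FPKM in KO and 0.88, 0 and 0.26 FPKM in OE. Thus 7 of 9 leaf libraries at 0 µM held SPX3 reads, 32 in all, against 1 of 9 at 200 µM. The 3 KO libraries at 0 µM held 19 of those reads. At this depth a listing at 0 means not detectable, not absent.

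With a leaf mean of 0.227 FPKM, SPX3 was below the minimum of 1 FPKM for the limma fit. An exact permutation test (two-sided, 9 against 9 libraries) on log2(FPKM + 0.1) gave a difference of 1.84 and p = 0.00226 between 0 and 200 µM. The p lay between 0.000823 and 0.00452 under the other settings and with any 1 library left out. The size depends on the amount added, and the difference was 0.46 with 1 in place of 0.1. The test took the 3 genotypes together.

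In root SPX3 was listed at 0, 0.23 and 0 FPKM in WT at 200 µM and stood at 0.78, 3.52 and 1.16 FPKM at 0 µM. In KO root it was at 0.50, 0.41 and 0.26 FPKM at 200 µM and at 5.52, 8.30 and 3.85 FPKM at 0 µM. In OE root it was at 0, 0.47 and 0.12 FPKM at 200 µM and at 0.51, 1.95 and 1.31 FPKM at 0 µM. The 2 Pi levels were apart in WT and KO, and all 3 KO libraries at 0 µM exceeded every other library. In WT the nearest values, 0.23 FPKM at 200 µM and 0.78 FPKM at 0 µM, rest on 2 and 5 reads. In OE the highest value at 200 µM (0.47 FPKM) and the lowest at 0 µM (0.51 FPKM) rest on 2 reads each, so they cannot be told apart at this depth. SPX3 reached the minimum of 1 FPKM for the root fit only through its 0 µM libraries. Its root mean was 2.99 FPKM at 0 µM and 0.221 FPKM at 200 µM, and the KO group at 0 µM was highest at 5.89 FPKM. SPX3 rose in KO root by 2.26 (SE 0.36, limma adjusted p = 0.00156) and over the mean of the genotypes by 1.47 (SE 0.21, adjusted p = 0.000185). Both calls also held without the filter on low values. With 1 added to values this low, these log2 changes understate the change in level. The KO group means stood at a ratio of 15.1, but the KO libraries held 5 reads in all at 200 µM and 53 at 0 µM. The size of that ratio is therefore uncertain.

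SPX3 changed by 1.27 in WT root (adjusted p = 0.0703) and by 0.88 in OE root (adjusted p = 0.69). In WT root it passed with 0.1 added in place of 1 (adjusted p = 0.0428) and with voom on the recovered reads (adjusted p = 0.0384). The authors' deposited table gives an adjusted p of 0.158 for SPX3 in WT root and 0.000801 in KO root. It lists no SPX3 value under 0.05 in OE root or in leaf. In the OE root group at 0 µM the 5 leaf markers summed to 2373 to 3666 FPKM, against 562 to 2637 in the other root groups, and their part in the OE values was not tested.

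SPX4, whose rice counterpart is known to hold a PHR factor in the cytosol, differed by organ and not detectably by Pi. In leaf it stood at 3.72, 2.78 and 1.93 FPKM in WT at 200 µM and at 3.53, 2.09 and 3.17 FPKM at 0 µM. The KO and OE leaf libraries lay between 1.25 and 3.92 FPKM, with the Pi levels overlapping in every genotype. In root WT held 6.59, 6.79 and 8.07 FPKM at 200 µM and 8.85, 8.30 and 11.9 FPKM at 0 µM, which did not overlap. KO root held 5.54, 9.82 and 7.03 FPKM at 200 µM and 5.72, 6.84 and 8.10 FPKM at 0 µM. OE root held 9.99, 8.05 and 11.02 FPKM at 200 µM and 13.6, 11.5 and 7.46 FPKM at 0 µM. The Pi levels overlapped in both lines, with 6 of the 9 root libraries at 0 µM within the range of those at 200 µM.

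No Pi response of SPX4 passed in any genotype or organ. Over the mean of the genotypes it was 0.08 in leaf (95% interval -0.33 to 0.49, limma adjusted p = 0.863) and 0.14 in root (95% interval -0.15 to 0.43, adjusted p = 0.533). Changes of up to about these interval ends remain possible.

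**Figure D3:**
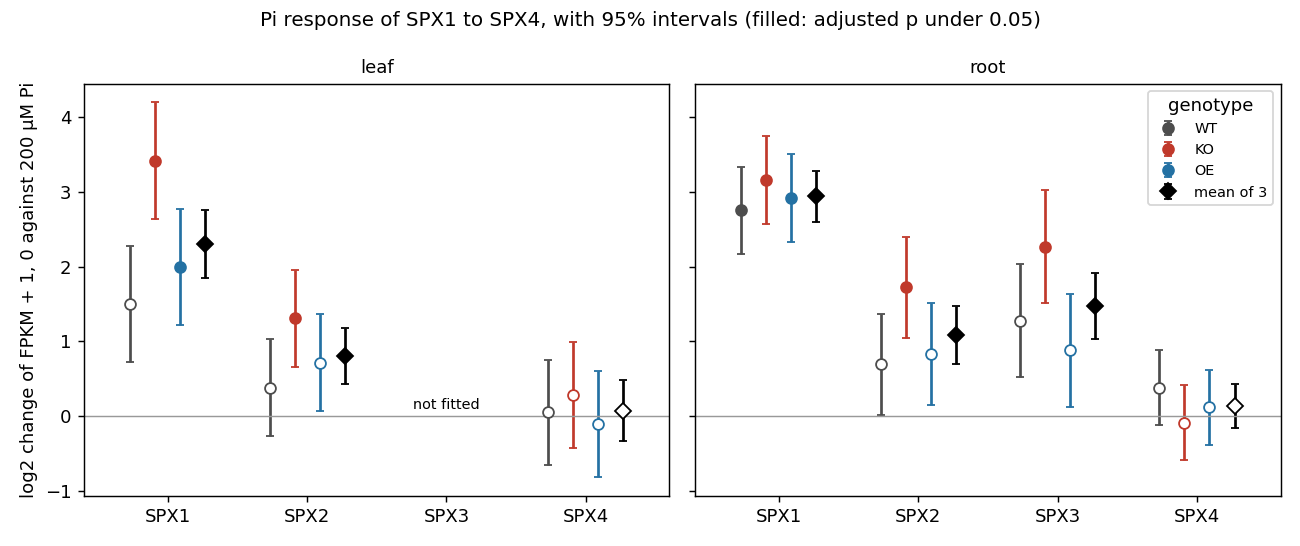
Log2 change of FPKM + 1 at 0 against 200 µM Pi for each gene in leaf and root, by genotype and for their mean, with 95% intervals from limma; filled points passed at an adjusted p under 0.05. SPX1 lies between 1.498 and 3.41, SPX4 has intervals that include 0 throughout, and SPX3 was not fitted in leaf.

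Root and leaf were then compared over the mean of the genotypes, in a setting where nearly all genes differ: 84.8% of 19327 genes passed at 200 µM and 85.6% at 0 µM (64.2% and 64.9% higher in root), and the median gene was 0.74 and 0.77 higher in root. Under median-of-ratios scaling those medians were 0.16 and 0.15, and 8406 genes were higher against 6323 lower at 200 µM and 8255 against 6305 at 0 µM, where the fit without it gave 12401 against 3992 and 12536 against 4006. SPX4 was 1.37 higher in root at 200 µM and 1.43 at 0 µM (each SE 0.16, limma adjusted p = 7.4e-09 and 2.93e-09), and 0.84 and 0.86 under that scaling. SPX1 was 1.13 higher in root at 0 µM (adjusted p = 4.8e-06) and 0.49 higher at 200 µM (adjusted p = 0.0212), and under that scaling these values were 0.44 (adjusted p = 0.0386) and -0.11 (adjusted p = 0.61). The 200 µM call for SPX1 was also lost without WT leaf replicate 3 (adjusted p = 0.0739) or KO root replicate 1 (adjusted p = 0.0658). SPX2 differed by -0.02 and 0.26 and did not pass (adjusted p = 0.933 and 0.19), but was lower in root under the scaling, by -0.64 (adjusted p = 0.00153) and -0.41 (adjusted p = 0.0335). SPX4 at both Pi levels and SPX1 at 0 µM exceeded the median gene, whereas SPX1 at 200 µM and SPX2 lay below it. SPX3 was not tested between organs. The Pi response differed between root and leaf by 0.64 for SPX1 (SE 0.28, adjusted p = 0.349), 0.28 for SPX2 and 0.06 for SPX4, and none passed (1.67% of genes did).

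Whether the lines change the sensors was tested at each Pi level and as a difference of Pi responses. None of the fitted members passed in any of these 12 comparisons. The shares of genes that passed in the comparisons at 200 µM were 0.873% (KO) and 0.382% (OE) in leaf and 0.0313% and 0.0417% in root. At 0 µM they were 0.0364% and 0.0303% in leaf and 0.0522% and 0.0678% in root. For the differences of Pi response they were 0.127% and 0.352% in leaf and 0% in root, where 2245 and 923 genes had an unadjusted p under 0.05. The largest difference was that of SPX1 in leaf, where the Pi response in KO exceeded that in WT by 1.92 (SE 0.52, 95% interval 0.82 to 3.01, adjusted p = 0.194). It was 1.75 without the outlying KO library and ranged from 1.41 to 2.31 with any 1 library left out (adjusted p 0.0926 to 0.41). The SPX1 response in WT leaf ranged from 1.10 to 2.00 in the same way. At 0 µM SPX1 was 1.32 higher in KO than in WT leaf (SE 0.37, adjusted p = 1) and SPX3 1.36 higher in KO than in WT root (SE 0.36, adjusted p = 0.155). For OE the differences of the fitted members from WT, differences of Pi response included, lay between -0.39 and 0.49. With 0.1 in place of 1 added, the SPX3 values in root were 0.64 at 200 µM and -1.04 for the difference of Pi response, with adjusted p values of 0.785 and 0.94.

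Across the 12 groups the SPX1 order ran from KO root at 0 µM (127 ± 30.1 FPKM) through OE and WT root (99.3 ± 8.98 and 99.2 ± 36.7) to KO leaf (85.3 ± 25.3), whose ranges overlap from each to the next. OE leaf (40.5 ± 11.3) and WT leaf (32.7 ± 3.28) at 0 µM came next and did not differ beyond their spread. The 6 groups at 200 µM closed the order between 13.9 and 7.02 FPKM, with overlapping neighbours. For SPX2 all neighbours in the order from 33.4 to 10.3 FPKM overlapped. For SPX3, KO root at 0 µM (5.89 ± 2.25 FPKM) lay above WT root at 0 µM (1.82 ± 1.48 FPKM) without overlap. The gap was narrow, with a lowest KO value of 3.85 and a highest WT value of 3.52 FPKM. That difference did not pass (limma adjusted p = 0.155). For SPX4 the single break lay between the lowest root group (6.89 FPKM) and the highest leaf group (2.93 FPKM).

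The genes around the sensors were described by lists. Of the 5 PHR factors, the partners of SPX proteins, 0 were called in any Pi response, and of the 5 genes of inositol pyrophosphate synthesis, which make the SPX ligand, 0 of the 4 fitted in leaf and 0 of the 5 in root. With at most 2.04% of all genes called in leaf and 8.67% in root, a count of 0 among so few genes is near the background and is no result about them. The values for PHR1 over the mean of the genotypes were -0.06 in leaf and 0.01 in root (-0.08 under median-of-ratios scaling), and neither passed. Under median-of-ratios scaling, PHL2 had an adjusted p of 0.0197 in root (-0.38), where the fit without it gave -0.28 (adjusted p = 0.063). Of the other SPX-domain genes, PHO1;H1, a homologue of the Pi exporter PHO1, rose by 1.58 in leaf (SE 0.22, limma adjusted p = 0.000743) and 1.13 in root (SE 0.18, adjusted p = 0.000667). In KO alone it rose by 2.33 in leaf (adjusted p = 0.00462) and 1.48 in root (adjusted p = 0.0134). The rest of that list, 4 fitted genes in leaf and 3 in root, did not pass.

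Of 22 PHR1 targets, 10 of the 15 fitted in leaf rose over the mean of the genotypes and 17 of the 20 in root, and none fell, where 1.5% and 4.85% of all genes rose. The other targets were below the minimum level. The list was chosen with earlier results of these data known, so its excess over all genes is no independent result. The median changes of the fitted targets were 0.86 and 1.15 against 0.05 and 0.09 for all genes. By genotype 0 of 15 rose in WT leaf, 11 in KO leaf and 2 in OE leaf, where 0.00606%, 0.964% and 0.685% of all genes rose. In WT, KO and OE root 13, 14 and 10 of 20 rose, where 1.11%, 1.27% and 0.11% of all genes did. The tests of the difference from the WT response gave 0 calls on this list for KO and for OE in either organ, so these counts do not show that the genotypes differ. Under median-of-ratios scaling 9 rose in KO leaf and 0 in OE leaf. Without that scaling, SQD1 and AT4 led the leaf risers over the mean of the genotypes, and GDPD1 and IPS1 led those in root. SQD1, a sulfolipid synthesis enzyme, rose by 1.17 (SE 0.13, adjusted p = 8.13e-05) and the noncoding AT4 by 2.80 (SE 0.39, adjusted p = 0.000724). GDPD1, a glycerophosphodiester phosphodiesterase, rose by 1.55 (SE 0.11, adjusted p = 2.31e-07) and the noncoding IPS1 by 4.30 (SE 0.35, adjusted p = 7.47e-07). In KO leaf SQD1 rose by 1.94 and AT4 by 4.56 (adjusted p = 0.00051 and 0.00209), and in KO root GDPD1 by 1.96 and SQD1 by 1.54 (adjusted p = 3.3e-05 and 0.000167). The lipid enzyme MGD3 rose with SQD1 in OE leaf, by 1.96 and 1.05 (adjusted p = 0.0468 and 0.0348), but under the scaling both had an adjusted p of 0.0535. PHT1;4, a Pi transporter, rose with IPS1 in WT root, by 1.78 and 4.93 (adjusted p = 0.00217 and 0.000835), and the acid phosphatase PAP17 with GDPD1 in OE root, by 1.76 and 1.57 (adjusted p = 0.00223 and 0.00091).

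PHO2, the ubiquitin conjugase that limits Pi transporters, fell by 0.59 in root over the mean of the genotypes (SE 0.12, adjusted p = 0.0051) and by 1.29 in KO root (adjusted p = 0.00175). In leaf its values were 0.85 over the mean (adjusted p = 0.143) and 1.72 in KO (adjusted p = 0.11), and the Pi response in root lay below that in leaf by a difference of -1.44 (SE 0.32, adjusted p = 0.011). Of the NIGT1 repressors, 1 of the 2 fitted in leaf was called, HHO3, which rose by 0.58 (adjusted p = 0.038). In root 1 of 4 was called, HRS1, which fell by 0.42 (adjusted p = 0.0238), while the median change of the 4 was 0.23. Of all genes 2.04% passed in leaf and 8.67% in root, and single calls among so few genes are no result about the list. The P1BS letters occurred within 1000 bases upstream of 13 of the 22 PHR1 targets and all 4 NIGT1 genes, against 20.3% of all promoters, and within 300 bases in 6 and 3 of them, against 6.50%. The PHR1 targets were listed as genes of the factor that binds these letters, so their count is no independent result. The NIGT1 list holds only 4 genes and was also chosen with earlier results of these data known, so its count is none either. In the 1000-base window they occurred in 1 of 5 PHR factors, 2 of 8 other SPX-domain genes, 1 of 5 genes of inositol pyrophosphate synthesis and in PHO2.

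**Figure D4:**
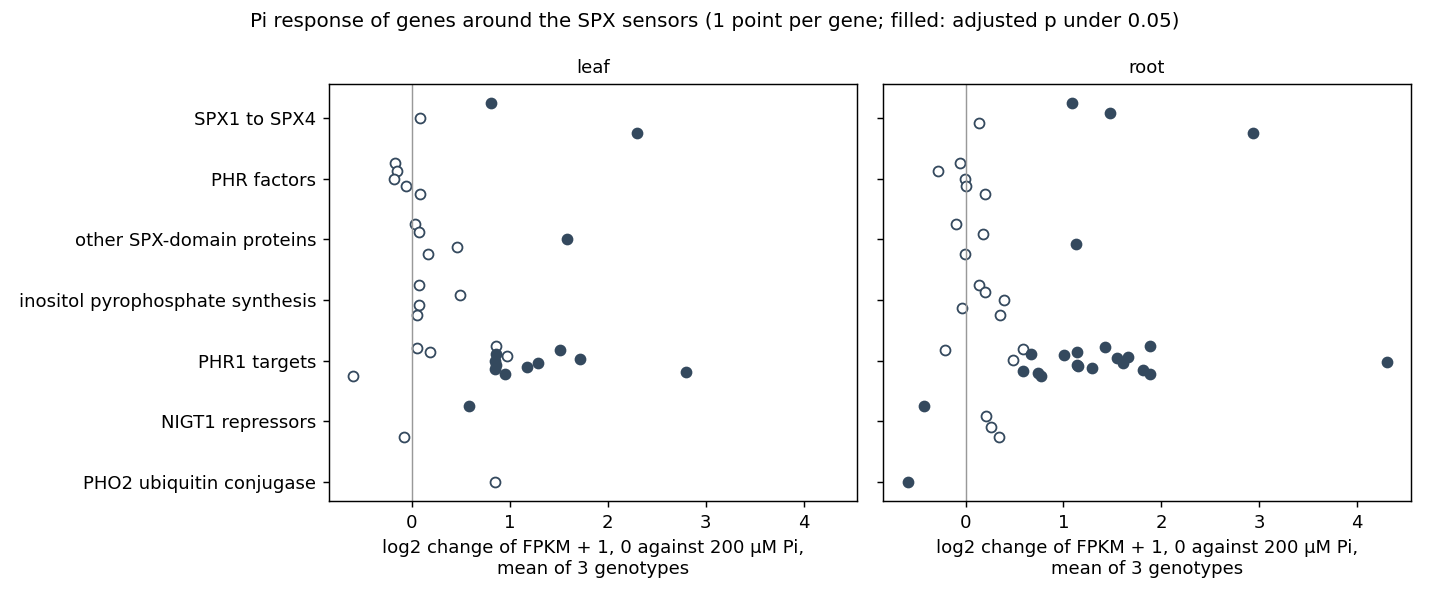
Log2 change of FPKM + 1 at 0 against 200 µM Pi, mean of 3 genotypes, in leaf and root; each point is 1 gene of a list and filled points passed at a limma adjusted p under 0.05. SPX1 (2.30 in leaf, 2.94 in root) lies near the top of the PHR1 targets, exceeded by AT4 in leaf and by IPS1 in root, while the PHR factors scatter around 0.

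The genes whose log2(FPKM + 1) ran most like each sensor were found by Pearson's r over the 18 libraries of an organ, a description that Pi level and genotype shape. In leaf SPX1 was most like SQD1 (r = 0.957), AT5G20790, annotated as a transmembrane protein (0.925), and DIC3, a dicarboxylate carrier (0.894). In root it was most like PAP17 (0.972), AT5G20790 (0.966) and the sulfolipid synthase SQD2 (0.964). AT5G20790 was also among the 3 nearest to SPX3 in root (0.890), after AT5G38710 (0.928) and GDPD1, annotated as SRG3 (0.890). SPX2 was nearest to PFA-DSP4, AT2G17280 and PAA1 in leaf (0.907 to 0.940) and to AT3G44510, AT4G26790 and AT3G11490 in root (0.888 to 0.916).

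For SPX4 the nearest genes reached lower values. They were ROP1, AGT3 and AT2G32140 in leaf (0.721 to 0.742) and AT3G05345, AT3G62110 and AT1G07440 in root (0.788 to 0.793). Among the sensors, SPX1 and SPX2 ran together at 0.866 in leaf and 0.782 in root, and SPX1 and SPX3 at 0.825 in root. SPX4 ran with SPX1 at 0.195 in leaf and 0.0982 in root.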

How the data were processed

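Total RNA was extracted with TRIZOL, and poly(A) RNA was sequenced as strand-specific libraries, per the labels' protocols. Reads were processed with Trimmomatic, HISAT2 2.2.1, DESeq2 and the TAIR10 build, per the submitters' processing notes. The deposited table holds the authors' FPKM per gene and library, a fold or ratio of group means and an adjusted p-value per Pi comparison. FPKM times coding length resolved into whole reads (tolerance 0.1), which gave each library's depth. The fit used limma 3.58.1 in R 4.3.3 on log2(FPKM + 1), separately per organ over its 18 libraries and together for root against leaf, on genes whose mean reached 1 FPKM. p-values were Benjamini-Hochberg adjusted within each of 23 comparisons over all genes fitted, with a threshold of 0.05. SPX3 in leaf was tested in scipy 1.17.1.

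Members and gene lists were chosen with earlier results of these data known. For each list and Pi response the text names, by smallest adjusted p, no more than 2 genes per direction, and the 3 genes with the highest Pearson correlation to each member in an organ. Alternatives were 0.1 added to FPKM, no filter, median-of-ratios scaling, a replicate block, each library left out and, chosen after seeing the data, voom on the recovered reads. Scripts were tested on simulated data. Genome sequence is RefSeq's TAIR10.1. Intervals cover the spread between libraries.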

Additional observations from a re-analysis of the deposited data

Results flagged for a closer look

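SPX3 in leaf at 200 µM was listed at 0 in 8 of 9 libraries and at 0.12 FPKM, a single read, in OE replicate 3. That library was picked out because it lay far from the other 8 of its Pi level. The rule flags about 1 in 20 groups by chance, and the 2 sets of 9 leaf libraries were the groups examined. That rate is no guide here, because the other 8 values were all 0 and a single read was enough to be flagged.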

How the results depend on the processing

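Of 1199 alternatives to 79 results on the sensors, 1124 kept both the direction and the side of the threshold, 52 changed sign, 19 lost the call and 4 gained one. The SPX1 Pi responses called in KO leaf, in each genotype in root and over the mean of genotypes held under every alternative run. So did the SPX2 and SPX3 Pi responses called in KO root and over the mean in root, and the SPX4 calls between organs. The SPX1 call between organs held throughout at 0 µM, but in only 19 of 23 alternatives at 200 µM. The causes of the changes below were not tested.

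The SPX2 change in KO leaf lost its call with 0.1 added (1.39), without the filter (1.31), with median-of-ratios scaling (1.16), with the replicate block (1.31) and with voom (1.35). SPX3 in WT root passed with 0.1 added (3.42) and with voom (3.64). Between root and leaf at 200 µM, scaling gave -0.11 for SPX1 and -0.64 for SPX2, and voom gave 0.51 for SPX1 (adjusted p = 0.0603). At 0 µM scaling gave -0.41 for SPX2. Among uncalled values, scaling gave -0.00092 for SPX2 in OE against WT root at 200 µM, and voom gave -0.28 for the SPX3 difference of Pi response between KO and WT root.

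Counts of genes that passed moved as follows. Without the filter, WT leaf had 2 in place of 1, OE leaf 78 in place of 132, and the OE difference of Pi response in leaf 30 in place of 58. With voom, KO against WT leaf at 200 µM had 95 (144), OE against WT leaf at 0 µM 3 (5), WT root 1174 (376), KO root 430 (676), OE against WT root 19 (8) at 200 µM and 7 (13) at 0 µM, and the organ difference of Pi response 173 (322). Under scaling, 28 genes were higher and 89 lower in KO against WT leaf at 200 µM (18 and 126 without it), and 9 and 5 in the KO difference of Pi response in leaf (18 and 3). Same-numbered libraries deviated together, with all 3 correlations over 0.1, in 1 of 20 pairings (0.174 to 0.723, OE against WT leaf at 0 µM). In the leaf and root pairings every correlation was positive, from 0.00675 to 0.375. Whether leaf and root libraries of the same number shared plants was not tested. The fit of root against leaf treated them as independent. The replicate block gave 2 genes in WT leaf and 162 in WT root.

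With single libraries left out, the Pi response counts ran from 0 to 23 in WT leaf, 55 to 182 in KO leaf, 27 to 124 in OE leaf, 189 to 938 over the mean in leaf, 30 to 1821 in WT root, 303 to 549 in KO root, 11 to 35 in OE root and 1004 to 2381 over the mean in root. Line counts at 200 µM ran from 51 to 170 (KO) and 29 to 53 (OE) in leaf and 5 to 922 and 6 to 361 in root, and at 0 µM in root from 5 to 29 and 5 to 11. Counts for differences of Pi response ran from 7 to 45 (KO) and 13 to 91 (OE) in leaf and 0 to 153 and 0 to 4 in root.

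Over the same omissions SPX1 ranged from 1.78 to 2.18 in OE leaf, from -0.62 to 0.28 in OE against WT leaf at 200 µM, from -0.0090 to 0.89 in the OE difference of Pi response in leaf and from -0.12 to 0.43 in root. In root it ranged from -0.33 to 0.25 (KO) and -0.21 to 0.0021 (OE) against WT at 200 µM, and from -0.22 to 0.33 (OE) at 0 µM, and between organs at 200 µM from 0.36 to 0.66.

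SPX2 ranged from 0.82 to 1.62 in KO leaf, 0.64 to 0.91 over the mean in leaf, -0.76 to 0.033 in KO against WT leaf at 200 µM, -0.052 to 0.17 in OE against WT leaf at 0 µM, -0.10 to 0.43 in OE against WT root at 200 µM, -0.15 to 0.37 in the OE difference of Pi response in root and -0.18 to 0.13 between organs at 200 µM. SPX3 ranged from 0.87 to 1.54 in WT root, where it passed without WT replicate 1 at 0 µM (adjusted p = 0.0462). Against WT root, SPX3 in OE ranged from -0.018 to 0.26 at 200 µM, -0.52 to 0.15 at 0 µM and -0.66 to 0.0094 in the difference.

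SPX4 Pi responses ranged from -0.12 to 0.22 in WT leaf, -0.38 to 0.068 in OE leaf, -0.013 to 0.19 over the mean in leaf, -0.25 to 0.11 in KO root and -0.044 to 0.35 in OE root. Against WT, SPX4 ranged from -0.22 to 0.23 (OE leaf, 200 µM), -0.22 to 0.069 (KO leaf, 0 µM), -0.43 to 0.021 (OE difference in leaf), -0.16 to 0.20 (KO root, 200 µM) and -0.040 to 0.35 (OE root, 0 µM). Its organ difference of Pi response ranged from -0.052 to 0.15.

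Depth limited SPX3 most: its leaf result rests on 33 reads in 18 libraries, and the SPX3 values of OE root replicates 1 and 3 at 0 µM on 2 reads each. In root at 200 µM the SPX3 reads of a group totalled 2 in WT, 5 in KO and 3 in OE.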
